A study of Mus musculus with 5 samples.

Results

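ILC2-like cells are the cells of these mammary glands that were chosen by a marker gate for group 2 innate lymphoid cells (ILC2s). They numbered 124 of the 28588 cells kept from 5 single-cell libraries (0.434%) and 124 of the 7936 kept cells that carried Ptprc, the CD45 gene (1.56%). Of these 124, 23 exceeded a limit on myeloid or epithelial genes, described below. A kept cell had at least 500 genes and at most 15% mitochondrial unique molecular identifiers (UMIs, each counted as 1 captured transcript). A member carried at least 1 UMI of Ptprc and at least 3 of 8 gate genes (Gata3, Il1rl1, Il5, Il13, Il7r, Rora, Il2ra and Icos), of which at least 1 was Il1rl1, Il5 or Il13. It had fewer than 2 UMIs each of the T cell genes Cd3d, Cd3e and Trac together, the natural killer (NK) genes Ncr1, Klrb1c and Klre1 together, the B cell genes Cd79a and Cd79b together, and the mast cell and basophil genes Cpa3, Mcpt8 and Ms4a2 together. Col1a1, Col1a2, Col3a1 and Dcn together stayed under 50 per 10000 UMIs. The gate genes chose the cells, so their values below are descriptions with no test.

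The study profiled mammary gland from mice labelled Frmd3 KO and from wild-type (WT) mice with droplet 3′ libraries, and its title concerns the fate of mammary epithelial cells and Notch signalling. There were 3 KO libraries (KO1, KO2 and KO3) and 2 WT libraries (WT1 and WT2), each from 1 sample. The sources used here do not state strain, age, gland stage or which part of Frmd3 was deleted, and the labels name no further agent in either group. Each library is the unit of comparison, since cells of 1 library are not replicates.

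ILC2s are tissue lymphocytes without rearranged antigen receptors. Epithelial and stromal alarmins such as IL-33 activate them through receptors that include ST2, the product of Il1rl1, and GATA3 is their defining transcription factor. Once active they release IL-5, which sustains eosinophils, IL-13, which acts on epithelium, macrophages and smooth muscle, and the growth factor amphiregulin, and they are held to live mainly in barrier and fat-rich tissues.

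The members came to 23, 11 and 14 cells in KO1, KO2 and KO3, against 22 and 54 cells in WT1 and WT2. Their median depth was 6043, 7097 and 3371.5 UMIs in KO1, KO2 and KO3, against 6486 and 6033 UMIs in WT1 and WT2, so KO3 members were the shallowest. Together they held 997731 UMIs. Whole libraries held 24197344 to 87577099 UMIs over 3359 to 11040 barcodes. Library pairs shared 85 barcodes in all, none of them a member. Frmd3 itself had 0 UMIs in the members of every library, which allows up to 14.2, 30.1 and 48.1 CPM in KO1, KO2 and KO3, against 13.7 and 7.4 CPM in WT1 and WT2 (CPM, UMIs per 1000000 of the summed UMIs; 3 counts per library). Over all kept cells Frmd3 stood at 2.12, 3.06 and 1.88 CPM in KO1, KO2 and KO3, against 1.45 and 2.33 CPM in WT1 and WT2. The knockout-labelled libraries thus held Frmd3 transcripts at a level that overlapped WT, and because a 3′ tag can lie outside the deleted part, this neither checks nor contradicts the labels.

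Most members had more than the minimum of gate genes. Of the 124, 26 carried exactly 3 of the 8, 9 carried 4, 19 carried 5, 21 carried 6, 35 carried 7 and 14 carried all 8. Just outside the gate, 85 cells met every other criterion but carried 2 gate genes. A further 92 cells failed only the T cell criterion, 37 only the collagen criterion, 11 only the mast cell criterion, 6 only the NK criterion and 2 only the B cell criterion, and 74 lacked only a Ptprc UMI. Among the members, 13 had exactly 1 UMI of the excluded T cell genes.

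The members were not uniform. In 101 members (15, 10 and 13 in KO1, KO2 and KO3, against 14 and 49 in WT1 and WT2), the myeloid genes Cd74, H2-Aa and Lyz2 together and the epithelial genes Epcam, Krt8 and Krt18 together each stayed under 50 per 10000 UMIs. These limits were set after the members had been seen. The other 23 members (8, 1 and 1 in KO1, KO2 and KO3, against 8 and 5 in WT1 and WT2) exceeded a limit, 19 of them the myeloid one and 4 the epithelial one. Of these 23, 21 carried exactly 3 gate genes, 14 had exactly 1 Il1rl1 UMI, 0 carried Il13 and 6 carried Gata3, at a median of 16863 UMIs. The 101 members within the limits had a median of 6 gate genes and 5339 UMIs. Gata3 was detected in 92 of them and Il1rl1 in 99. Both genes are part of the gate, so their detection follows in part from how the members were chosen. The T cell transcripts described below were found among these 101 too. The 23 over a limit carried transcripts of macrophages, dendritic cells or epithelium, 21 of them beside the minimum of gate genes. Of the other two, a WT2 member over the myeloid limit had 4 gate genes, and a WT1 member over the epithelial limit had 6, with 47 Il5 and 76 Areg UMIs. Library levels below are over all members, and those within the limits are given beside them for the leading genes. A doublet score marked 5 members (1 in each of KO1, KO2 and KO3, against 2 and 0 in WT1 and WT2), and they were kept. Of these 5, the KO2 member and 1 of WT1 were within the limits.

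**Figure D1:**
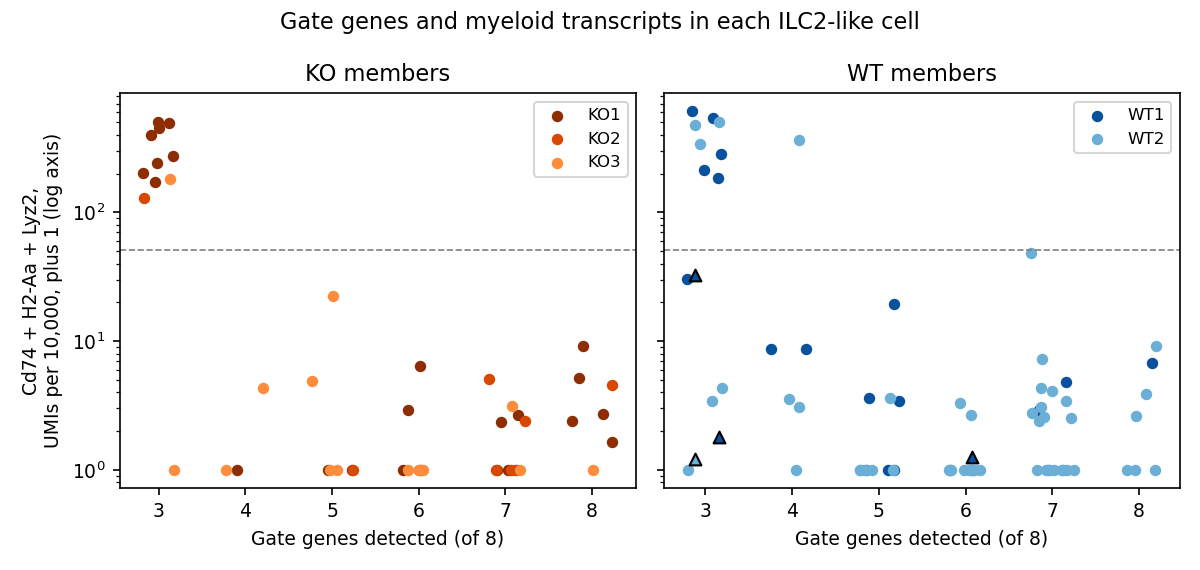
Each point is 1 ILC2-like cell, KO members on the left and WT members on the right, with the number of gate genes detected (of 8) on the x axis and Cd74, H2-Aa and Lyz2 UMIs per 10000, plus 1, on the logarithmic y axis. The dashed line is the limit of 50 per 10000 UMIs and black-edged triangles are the 4 members over the epithelial limit; of the 23 members over a limit, 21 sit at 3 gate genes.

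Markers of other lymphocytes were checked in the members. Of 14 T cell markers outside the gate, the summed level was 185, 651 and 529 CPM in KO1, KO2 and KO3, against 510.4 and 414 CPM in WT1 and WT2, and it was 2781 to 3341 CPM in T-gated cells (cells with at least 2 UMIs of Cd3d, Cd3e and Trac). The sum in members was higher in every library within the limits. There it was 435, 825 and 767 CPM in KO1, KO2 and KO3, against 1393 and 548 CPM in WT1 and WT2. At least 1 UMI of Cd3g, Trbc1 or Trbc2 was found in 81 members and at least 2 UMIs in 67. Trbc2, which encodes a constant region of the T cell receptor beta chain, was detected in 54% of members, against 29% of NK-gated and 90.9% of T-gated cells. Cd3g was detected in 15.3% of members, against 6.12% of NK-gated and 80.6% of T-gated cells. Median depths were 3372 to 7097 UMIs per library in members, 4485 to 5640 in NK-gated cells and 4390 to 6298 in T-gated cells. Cd4 had 2 UMIs in all members and Cd8a 0. Foxp3, the factor of regulatory T cells, had 7 UMIs in 3 members, all of them within the limits. T cells whose Cd3d, Cd3e and Trac went unread cannot be told apart from ILC2s by this gate. Il4, another type 2 cytokine gene, had 1 UMI in the members. A count of 0, as for Cd8a, allows up to 2.42% of the members to hold a UMI, or 3.01 CPM over all of them, and does not limit how many cells expressed the gene.

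The myeloid list of 14 macrophage and dendritic cell markers summed to 26311, 6572 and 7434 CPM in KO1, KO2 and KO3, against 15646 and 7706 CPM in WT1 and WT2, and within the limits to 246, 127 and 325 CPM in KO1, KO2 and KO3, against 1393 and 417 CPM in WT1 and WT2. The epithelial list of 10 genes summed to 237, 1012 and 2035 CPM in KO1, KO2 and KO3, against 8436 and 3389 CPM in WT1 and WT2, and within the limits to 357, 1231 and 302 CPM in KO1, KO2 and KO3, against 451 and 378 CPM in WT1 and WT2. The limits themselves use genes of both lists, so the smaller sums follow in part from the choice of members.

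IL-5, IL-13 and GM-CSF, the product of Csf2, are encoded near each other on chromosome 11, at chr11:53720794-53725106, chr11:53631324-53634702 and chr11:54247271-54249667 (GENCODE M21, mm10). Their promoter windows, 250 bases before to 50 after the start from RefSeq (GRCm38.p6), are shown because these genes carry the cytokine readout of the members and GATA3, whose gene was part of the gate, binds GATA motifs. Il5 lies at chr11:53720544-53720843 on the plus strand, Il13 at chr11:53634653-53634952 on the minus strand and Csf2 at chr11:54249850-54250149 on the minus strand, each written 5′ to 3′ on the strand of its gene. The motifs searched on both strands were AGATAA as well as AGATAG, and TGATAA as well as TGATAG, and capitals mark a match.
Il5: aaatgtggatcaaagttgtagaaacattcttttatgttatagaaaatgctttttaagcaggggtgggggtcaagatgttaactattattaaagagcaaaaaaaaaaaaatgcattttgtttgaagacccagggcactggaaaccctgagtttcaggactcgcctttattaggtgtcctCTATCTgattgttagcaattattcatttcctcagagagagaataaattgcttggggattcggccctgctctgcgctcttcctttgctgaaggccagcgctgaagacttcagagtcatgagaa
Il13: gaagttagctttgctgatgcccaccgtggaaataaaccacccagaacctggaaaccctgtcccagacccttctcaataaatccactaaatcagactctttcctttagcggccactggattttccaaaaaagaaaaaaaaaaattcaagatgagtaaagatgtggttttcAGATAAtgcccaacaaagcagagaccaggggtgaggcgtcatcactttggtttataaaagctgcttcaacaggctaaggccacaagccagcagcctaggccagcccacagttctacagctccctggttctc
Csf2: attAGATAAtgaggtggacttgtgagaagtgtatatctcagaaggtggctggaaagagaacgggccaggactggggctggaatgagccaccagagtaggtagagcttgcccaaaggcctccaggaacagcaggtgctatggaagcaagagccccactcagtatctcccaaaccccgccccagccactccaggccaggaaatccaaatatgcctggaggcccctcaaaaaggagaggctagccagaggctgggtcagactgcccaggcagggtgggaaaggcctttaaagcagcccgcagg
Each of these 3 windows held 1 match. The Il5 and Il13 windows contain the GENCODE start of their gene, whereas the Csf2 window, with its match, lies wholly upstream of it. Of 32851 promoter windows of the same length, 9778 (29.8%) held at least 1, so a match is common.

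Il5 was read in 75 of the 124 members, and in 72 of the 101 within the limits. Its summed level was 954, 2825 and 336 CPM in KO1, KO2 and KO3, against 428 and 2563 CPM in WT1 and WT2. Within the limits it was 2244, 3578 and 488 CPM in KO1, KO2 and KO3, against 628 and 3408 CPM in WT1 and WT2, since all 201 Il5 UMIs of KO1 lay there, and 47 of the 94 of WT1 lay in 1 member over the epithelial limit. KO2 and WT2 were highest and KO3 and WT1 lowest either way, KO1 lay between them, and the genotypes overlapped. Within the limits, Il5 was detected in 11 of 15, 8 of 10 and 4 of 13 in KO1, KO2 and KO3, against 9 of 14 and 40 of 49 in WT1 and WT2. The share was lowest in KO3 (95% exact binomial interval 9.09% to 61.4%), whose members were also the shallowest, and the interval in WT2 was 68% to 91.2%. In NK-gated cells of the same libraries Il5 had 2 UMIs over 915 cells.

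Il13 was read in 27 members, all of them within the limits, and 22 of the 27 also carried Il5. Its summed level was 161, 200.4 and 288 CPM in KO1, KO2 and KO3, against 31.9 and 217 CPM in WT1 and WT2. WT1 was lowest, and the other 4 libraries lay within 161 to 288 CPM. Within the limits, which hold all Il13 UMIs, it was 379.6, 254 and 418 CPM in KO1, KO2 and KO3, against 95.6 and 289 CPM in WT1 and WT2, and WT1 again was lowest. Within the limits it was detected in 6 of 15, 3 of 10 and 3 of 13 in KO1, KO2 and KO3, against 3 of 14 and 12 of 49 in WT1 and WT2, and the genotypes overlapped. NK-gated cells held 0 UMIs of Il13. The receptor gene Il1rl1 stood at 788, 1232 and 1041 CPM in KO1, KO2 and KO3, against 638 and 1342 CPM in WT1 and WT2, and Gata3 at 693, 1853 and 1346 CPM in KO1, KO2 and KO3, against 720.1 and 1961 CPM in WT1 and WT2. For both, KO2 and WT2 lay at the high end and KO1 and WT1 at the low end. Within the limits Il1rl1 was 1708, 1548 and 1464 CPM in KO1, KO2 and KO3, against 1694 and 1763 CPM in WT1 and WT2, and Gata3 was 1619, 2347 and 1952 CPM in KO1, KO2 and KO3, against 1680.3 and 2597 CPM in WT1 and WT2, so KO1 was no longer low for Il1rl1.

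Members with an Il5 UMI were the deeper cells, and their other transcripts were counted beside those of members without one. Of the 72 members within the limits that had an Il5 UMI (median 6031.5 UMIs), 41 carried Csf2, 26 Calca, 49 Arg1 and 58 Ramp3. Of the 29 without one (median 3890 UMIs), 5 carried Csf2, 2 Calca, 18 Arg1 and 10 Ramp3. These cells share libraries and differ in depth, so the counts are a description.

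**Figure D2:**
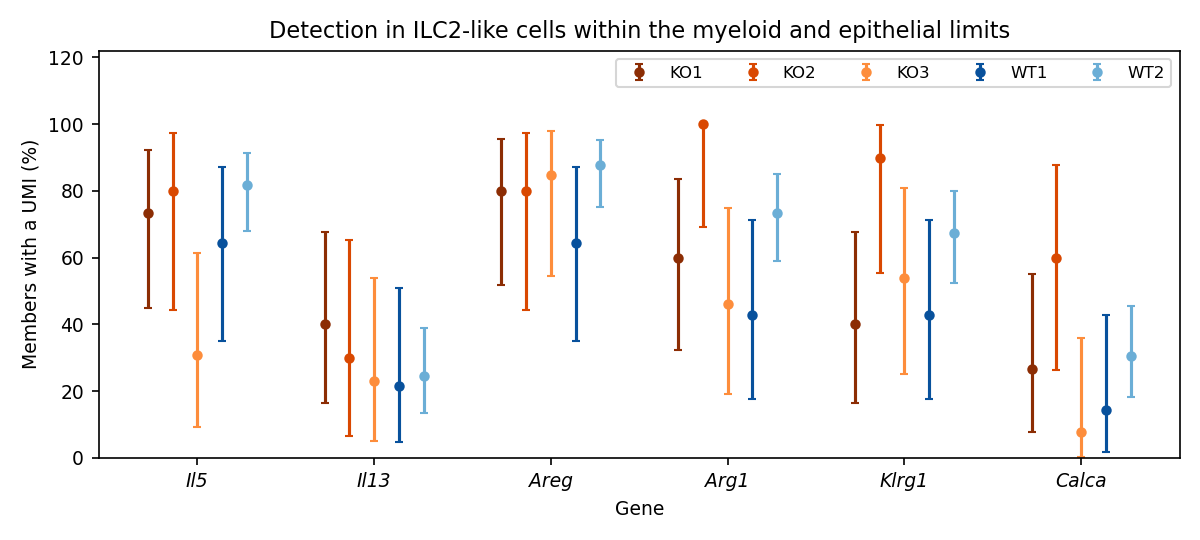
Percent of ILC2-like cells within the myeloid and epithelial limits that had at least 1 UMI of Il5, Il13, Areg, Arg1, Klrg1 or Calca, by library, KO libraries left of WT libraries, with 95% exact binomial intervals that cover counting error only. The genotypes overlap for each of the 6 genes, with Il5 read in 4 of 13 KO3 members and in 40 of 49 WT2 members.

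Other secreted factors were compared with the NK-gated cells (915) and the T-gated cells (953) of the same libraries. These comparisons were paired within library over 5 libraries, and genes of the gates were left out of the counts. Of 12 cytokine genes tested against NK-gated cells, 6 were higher and 4 lower in ILC2-like cells, at a median log2 difference of 2.74 against -0.036 for all genes tested. Over all 4759 genes, 1069 passed (22.5%), with 12.8% higher and 9.67% lower, and within the limits 1250 of 4505 passed (27.7%), with 14.9% higher and 12.9% lower. Of 16 tested against T-gated cells, 6 were higher and 5 lower, at a median of 1.28 against -0.053, where 999 of 5853 genes passed (17.1%), with 10.7% higher and 6.32% lower, and within the limits 979 of 4976 passed (19.7%), with 10.6% higher and 9.06% lower. Areg, Csf2, Il6, Ccl1 and Cxcl2 were higher in both, Calca passed against NK-gated cells, and Lif against T-gated cells. Ifng, Ccl4, Ccl5 and Xcl1, products of type 1 and cytotoxic lymphocytes, were lower in both, although Ccl4 missed the threshold against T-gated cells within the limits, at -0.74 (adjusted p = 0.125). The T cell cytokine gene Il17a had 0 UMIs in the members, at least 12.3-fold lower than in T-gated cells (against a floor of 3 counts over all members).

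Areg encodes amphiregulin, a ligand of the epidermal growth factor receptor. It stood at 740.5, 1362 and 705 CPM in KO1, KO2 and KO3, against 538 and 1658 CPM in WT1 and WT2 in the members. Within the limits it was 1262, 1725 and 999 CPM in KO1, KO2 and KO3, against 492 and 2180.4 CPM in WT1 and WT2. KO2 and WT2 were high and WT1 lowest either way, so the genotypes overlapped. Of the 118 Areg UMIs of WT1, 76 came from 1 member over the epithelial limit. NK-gated cells held 0 to 124 CPM and T-gated cells 53.2 to 365 CPM over the 5 libraries. The log2 difference from NK-gated cells was 5.08 ± 0.51 (SE; edgeR adjusted p = 0.00027), and 6.64 (adjusted p = 1.41e-07) within the limits. That from T-gated cells was 2.68 ± 0.54 (SE; edgeR adjusted p = 0.0125), and 4.01 (adjusted p = 0.000759) within the limits.

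Csf2 stood at 61.7, 351 and 160.2 CPM in KO1, KO2 and KO3, against 155 and 565 CPM in WT1 and WT2 in the members, where WT2 was highest and KO1 lowest and the genotypes overlapped. Within the limits Csf2 was 145, 444 and 232 CPM in KO1, KO2 and KO3, against 423 and 752 CPM in WT1 and WT2, with the same highest and lowest library. In NK-gated cells it lay at 0 to 7.42 CPM and in T-gated cells at 0 to 18 CPM. The log2 difference was 8.35 ± 0.82 (SE; edgeR adjusted p = 0.000184) from NK-gated and 5.07 ± 0.84 (SE; edgeR adjusted p = 0.00815) from T-gated cells. The second no longer passed over the 3 libraries with at least 20 members, at 4.64 (adjusted p = 0.148). Calca, the gene of calcitonin and the neuropeptide CGRP, stood at 209, 2004 and 16 CPM in KO1, KO2 and KO3, against 45.6 and 395 CPM in WT1 and WT2, with KO2 above the other 4 libraries. Within the limits Calca was 491, 2537 and 23.2 CPM in KO1, KO2 and KO3, against 137 and 525 CPM in WT1 and WT2, again highest in KO2. It differed by 4.92 ± 0.76 (SE; edgeR adjusted p = 0.00441) from NK-gated cells and by 3.43 ± 1.11 (SE; edgeR adjusted p = 0.103) from T-gated cells, the second of which did not pass.

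Il6 differed by 3.63 ± 0.74 (SE; edgeR adjusted p = 0.00307) from NK-gated cells and by 3.66 ± 0.58 (SE; edgeR adjusted p = 0.000518) from T-gated cells, at 0 to 123 CPM in the members over the 5 libraries. Ccl1, the ligand of CCR8, lay at 33.2 to 545 CPM in the members, against 0 to 4.59 CPM in NK-gated and 0 to 20.9 CPM in T-gated cells. Cxcl2, a neutrophil attractant, lay at 619.8 to 1450.4 CPM in the members, against 12 to 139.7 CPM in NK-gated and 39.8 to 185 CPM in T-gated cells. Xcl1 had 1 UMI in the members, and the level in NK-gated cells was 322 (95% counting interval 57.7 to 12718) times as high.

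ILC2 markers that the gate did not use were high in the members. Of 17 tested against NK-gated cells, 15 were higher and 0 lower, at a median log2 difference of 5.05, and 5.94 within the limits. Of 18 tested against T-gated cells, 14 were higher and Thy1, a surface glycoprotein of T cells and many ILCs, was lower, at a median of 2.44, and 3.19 within the limits. Over all genes tested, 12.8% were higher and 9.67% lower against NK-gated cells, and 10.7% and 6.32% against T-gated cells. Thy1 was -1.24 ± 0.30 (SE; edgeR adjusted p = 0.00952) and no longer passed within the limits, at -0.49 (adjusted p = 0.186). Hs3st1, a heparan sulfate sulfotransferase gene, stood at 166, 441 and 96.1 CPM in KO1, KO2 and KO3, against 63.8 and 296 CPM in WT1 and WT2 in the members, highest in KO2 and WT2. Within the limits Hs3st1 was 391, 558 and 139 CPM in KO1, KO2 and KO3, against 191 and 394 CPM in WT1 and WT2, where KO1 reached the level of WT2. It had 219 UMIs in members and 3 in NK-gated cells, a ratio of levels of 437 (95% counting interval 148 to 2137), and it was 6.83 ± 0.46 (SE; edgeR adjusted p = 5.15e-07) higher on the log2 scale than in T-gated cells. Klrg1, an inhibitory receptor of mature ILC2s and effector lymphocytes, stood at 75.9, 371 and 256 CPM in KO1, KO2 and KO3, against 109 and 202 CPM in WT1 and WT2. It differed on the log2 scale by 1.28 ± 0.27 (SE; edgeR adjusted p = 0.00374) from NK-gated and 2.52 ± 0.33 (SE; edgeR adjusted p = 7.99e-05) from T-gated cells. KO2 had the highest Klrg1 and KO1 the lowest, and both WT libraries lay between them. Within the limits Klrg1 was 179, 469 and 372 CPM in KO1, KO2 and KO3, against 259.6 and 269 CPM in WT1 and WT2, in which both WT libraries again lay between KO1 and KO2.

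Lmo4, a LIM domain cofactor gene, was higher on the log2 scale by 3.53 ± 0.23 (SE; edgeR adjusted p = 1.86e-07) than in NK-gated cells and by 3.32 ± 0.30 (SE; edgeR adjusted p = 3.97e-06) than in T-gated cells. Alox5, the 5-lipoxygenase of leukotriene synthesis, lay at 16 to 66.6 CPM in the members, against 0 CPM in every library of NK-gated and 0 to 2.45 CPM in T-gated cells. Ptpn13, a tyrosine phosphatase gene, lay at 85.4 to 230.4 CPM in the members, against 0 to 4.86 CPM in NK-gated and 15.3 to 47.4 CPM in T-gated cells. Bcl11b, a factor of both ILC2s and T cells, was 3.94 ± 0.52 (SE; edgeR adjusted p = 0.000108) from NK-gated cells and -0.77 ± 0.30 (SE; edgeR adjusted p = 0.09) from T-gated cells, which did not pass. Tnfrsf18, which encodes the costimulatory receptor GITR, was higher by 1.72 ± 0.34 (SE; edgeR adjusted p = 0.00325) than in NK-gated cells and by 1.12 ± 0.34 (SE; edgeR adjusted p = 0.0329) than in T-gated cells.

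Of 12 cytokine receptor genes tested against NK-gated cells, 5 were lower (Il18r1, Il18rap, Il2rb, Il12rb2 and Ifngr1) and 2 higher (Il4ra and Il6ra), at a median log2 difference of 0.21. Il6ra was not tested within the limits, and Il18r1 no longer passed there, at -0.48 (adjusted p = 0.267). Il12rb2, a chain of the IL-12 receptor, had 3 UMIs in all members. Against T-gated cells 4 of 14 were higher (Il9r, Crlf2, Il10ra and Kit) and 2 lower (Il12rb2 and Ifngr1). The shares over all genes were 12.8% higher and 9.67% lower against NK-gated cells, and 10.7% and 6.32% against T-gated cells. Crlf2 encodes the receptor chain of the alarmin TSLP, Il9r that of IL-9, and Kit the stem cell factor receptor. The log2 difference from T-gated cells was 0.88 ± 0.27 (SE; edgeR adjusted p = 0.0354) for Crlf2, and 0.61 (adjusted p = 0.266) within the limits, where it did not pass. Ifngr1 likewise missed the threshold within the limits, at -0.068 (adjusted p = 0.858). For Kit it was 3.36 ± 0.59 (SE; edgeR adjusted p = 0.00101), and 4.60 (adjusted p = 1.76e-08) within the limits.

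Receptors for neuropeptides and lipid mediators, through which nerves and leukotrienes act on ILC2s, were tested next. Against NK-gated cells 6 of 12 were higher (Ramp1, Ramp3, Ptgir, Cysltr1, Ltb4r1 and Gpr65) and S1pr4 was lower, at a median log2 difference of 1.64. Against T-gated cells 7 of 14 were higher (Ramp1, Ptger2, Ptgir, Cysltr1, Ltb4r1, Gpr65 and Adora2a) and S1pr1 and S1pr4 were lower, at a median of 0.99. Among all genes 12.8% were higher and 9.67% lower against NK-gated cells, and 10.7% and 6.32% against T-gated cells. Ramp1 and Ramp3 encode proteins that pair with the calcitonin receptor-like receptor for CGRP and adrenomedullin. Ramp3 stood at 275, 821 and 176 CPM in KO1, KO2 and KO3, against 169 and 550.1 CPM in WT1 and WT2 in the members, while it lay at 2.94 to 16 CPM in NK-gated and 128 to 404 CPM in T-gated cells. Within the limits Ramp3 was 525, 1040.4 and 256 CPM in KO1, KO2 and KO3, against 396 and 699 CPM in WT1 and WT2. KO2 and WT2 were high and KO3 and WT1 low either way, so the genotypes overlapped. The log2 difference was 5.68 ± 0.38 (SE; edgeR adjusted p = 2.03e-07) from NK-gated cells and 0.45 ± 0.30 (SE; edgeR adjusted p = 0.35) from T-gated cells, which passed within the limits at 1.07 (adjusted p = 0.000303).

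Ptgir, the prostacyclin receptor gene, had 78 UMIs in members and 1 in NK-gated cells, a ratio of levels of 467 (95% counting interval 81.4 to 18690). It was 5.03 ± 0.51 (SE; edgeR adjusted p = 9.39e-06) higher than in T-gated cells on the log2 scale. Cysltr1, a cysteinyl leukotriene receptor gene, had 44 UMIs in members and 1 in NK-gated cells, a ratio of 264 (95% counting interval 44.9 to 10645), and its difference from T-gated cells was 3.07 ± 0.61 (SE; edgeR adjusted p = 0.00227). Ltb4r1, the leukotriene B4 receptor gene, was 5.05 ± 0.44 (SE; edgeR adjusted p = 1.81e-06) higher than in NK-gated cells and 2.35 ± 0.34 (SE; edgeR adjusted p = 0.000192) higher than in T-gated cells on the log2 scale. Cysltr1 against NK-gated cells and Ptger2 against T-gated cells were not tested within the limits.

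Of 23 transcription factor genes tested against NK-gated cells, 7 were higher (Bcl11b, Pparg, Maf, Ikzf3, Ahr, Klf6 and Irf4) and 4 lower (Tbx21, Eomes, Klf2 and Runx3), at a median log2 difference of 0.34. Of 27 tested against T-gated cells, 7 were higher (Id2, Nfil3, Pparg, Ikzf3, Ahr, Klf6 and Runx1) and 4 lower (Tcf7, Tbx21, Eomes and Klf2), at a median of -0.19. For all genes the shares were 12.8% higher and 9.67% lower against NK-gated cells, and 10.7% and 6.32% against T-gated cells. Pparg, a nuclear receptor of lipid handling known in ILC2s, stood at 14.2, 60.1 and 32 CPM in KO1, KO2 and KO3, against 13.7 and 66.6 CPM in WT1 and WT2 in the members. It had 41 UMIs there and 2 in NK-gated cells, a ratio of 123 (95% counting interval 31.9 to 1048), and was 3.98 ± 0.85 (SE; edgeR adjusted p = 0.00403), and 4.85 (adjusted p = 8.15e-06) within the limits, on the log2 scale against T-gated cells. Id2, which restrains the T and B cell programmes and is needed by all ILCs, was 0.48 ± 0.18 (SE; edgeR adjusted p = 0.0647) from NK-gated cells, which missed the threshold, and 1.68 ± 0.28 (SE; edgeR adjusted p = 0.000572) from T-gated cells. Within the limits the first passed, at 0.96 (adjusted p = 6.09e-05).

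Eomes and Tbx21 are factors of NK cells, and Tbx21 is also one of ILC1s and type 1 T cells. Eomes had 1 UMI in the members, and the level in NK-gated cells was 308 (95% counting interval 55.2 to 12171) times as high. Tbx21 differed on the log2 scale by -4.28 ± 0.60 (SE; edgeR adjusted p = 0.000169) from NK-gated cells and by -2.75 ± 0.71 (SE; edgeR adjusted p = 0.0144) from T-gated cells. Tcf7, which encodes TCF1, was -3.03 ± 0.40 (SE; edgeR adjusted p = 8.43e-05) from T-gated cells. Ahr, the aryl hydrocarbon receptor gene, differed by 1.72 ± 0.34 (SE; edgeR adjusted p = 0.00238) from T-gated cells and missed the threshold within the limits, at 1.28 (adjusted p = 0.074). Irf4 was not tested against NK-gated cells within the limits.

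The Notch pathway, which the study's title names, signals by cleavage of a receptor whose released part joins RBPJ on target genes. Of 11 Notch pathway genes tested against NK-gated cells, 3 were higher (Notch2, Rbpj and Psen2) and Nrarp was lower. Of 16 tested against T-gated cells, 4 were higher (Notch2, Rbpj, Psen2 and Hes1) and 0 lower. Over all genes 12.8% were higher and 9.67% lower against NK-gated cells, and 10.7% and 6.32% against T-gated cells. Rbpj stood at 565, 341 and 545 CPM in KO1, KO2 and KO3, against 324 and 535 CPM in WT1 and WT2 in the members, while it lay at 40.1 to 121 CPM in NK-gated and 67.7 to 198 CPM in T-gated cells. Its log2 difference was 3.13 ± 0.33 (SE; edgeR adjusted p = 1.83e-05) from NK-gated and 2.33 ± 0.33 (SE; edgeR adjusted p = 0.000192) from T-gated cells. Notch2, a receptor gene, was 2.25 ± 0.36 (SE; edgeR adjusted p = 0.000378), and 2.68 (adjusted p = 2.44e-07) within the limits, against NK-gated cells and 1.83 ± 0.33 (SE; edgeR adjusted p = 0.00122), and 2.25 (adjusted p = 3.08e-06) within the limits, against T-gated cells. Psen2, a subunit of the protease that cleaves Notch and many other membrane proteins, was 2.64 ± 0.37 (SE; edgeR adjusted p = 0.000261) from NK-gated and 1.73 ± 0.31 (SE; edgeR adjusted p = 0.00117) from T-gated cells. Hes1, a target gene, passed against T-gated cells, at 2.17 ± 0.53 (SE; edgeR adjusted p = 0.0208), and 3.79 (adjusted p = 1.87e-05) within the limits.

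The homing and residency list held chemokine receptors, integrins and genes of tissue exit. Against NK-gated cells 5 of 16 were higher (Cxcr6, Ccr2, Ccr4, Rgs2 and Cd44) and 6 lower (among them Cxcr4, Itga1, Itga4, Itgb1 and Klf2), of which Itga4 missed the threshold within the limits, at a median log2 difference of 0.42. Against T-gated cells 5 of 16 were higher (Cxcr6, Ccr2, Ccr4, Rgs2 and Cd44) and 3 lower (among them S1pr1 and Klf2), at a median of -0.10. The all-gene shares were 12.8% higher and 9.67% lower against NK-gated cells, and 10.7% and 6.32% against T-gated cells. Cxcr6, a chemokine receptor gene of resident lymphocytes, stood at 347, 1593 and 224 CPM in KO1, KO2 and KO3, against 283 and 942 CPM in WT1 and WT2 in the members, while it lay at 0 to 57.4 CPM in NK-gated and 60.4 to 276 CPM in T-gated cells. Its log2 difference was 5.34 ± 0.92 (SE; edgeR adjusted p = 0.0124) from NK-gated and 1.88 ± 0.50 (SE; edgeR adjusted p = 0.0355) from T-gated cells. Within the limits Cxcr6 was 815, 2017 and 325 CPM in KO1, KO2 and KO3, against 751 and 1254 CPM in WT1 and WT2. The difference from NK-gated cells missed the threshold without KO1, at 5.51 (adjusted p = 0.0524), and over the libraries with at least 20 members, at 4.61 (adjusted p = 0.0963). Ccr4, a receptor gene shared by type 2 lymphocytes, lay at 32 to 200.4 CPM in the members, against 0 to 4 CPM in NK-gated and 23.7 to 46.5 CPM in T-gated cells. The T cell egress receptor gene S1pr1 was -3.49 ± 0.66 (SE; edgeR adjusted p = 0.00812) from T-gated cells.

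Arg1, the arginase gene that ILC2s and alternatively activated macrophages express, stood at 152, 701 and 128 CPM in KO1, KO2 and KO3, against 109 and 331 CPM in WT1 and WT2 in all members. Within the limits it was 357, 888 and 186 CPM in KO1, KO2 and KO3, against 301 and 440.0 CPM in WT1 and WT2, and 67 of the 68 members with an Arg1 UMI were within them. KO2 was highest, WT2 came next, and KO1, KO3 and WT1 were lower, so the genotypes overlapped. NK-gated cells held 0 to 7.42 CPM and T-gated cells 0.925 to 9.39 CPM. Its log2 difference was 6.79 ± 0.48 (SE; edgeR adjusted p = 6.76e-07), and 8.12 (adjusted p = 1.72e-15) within the limits, for NK-gated cells and 6.03 ± 0.57 (SE; edgeR adjusted p = 6.76e-05), and 7.09 (adjusted p = 1.45e-10) within the limits, for T-gated cells. Of 18 genes of arginine, lipid and energy metabolism tested against NK-gated cells, 9 were higher and 0 lower, at a median of 1.41, and of 19 against T-gated cells 6 and 0, at a median of 0.98. Among all genes tested the shares were 12.8% and 9.67% against NK-gated cells, and 10.7% and 6.32% against T-gated cells. Slc7a8, an amino acid transporter gene, was 6.1 ± 0.62 (SE; edgeR adjusted p = 7.48e-06) from NK-gated cells and 4.61 ± 0.51 (SE; edgeR adjusted p = 1.99e-05) from T-gated cells. Dgat2, an enzyme of triglyceride synthesis, was 4.72 ± 0.40 (SE; edgeR adjusted p = 1.4e-06) from NK-gated cells and 3.35 ± 0.43 (SE; edgeR adjusted p = 7.11e-05) from T-gated cells. Ldha, the lactate dehydrogenase gene of glycolysis, was 1.39 ± 0.24 (SE; edgeR adjusted p = 0.000674) from NK-gated cells and 1.09 ± 0.24 (SE; edgeR adjusted p = 0.00559) from T-gated cells. The fatty acid uptake gene Cd36 passed against both over all members and was not tested within the limits.

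NF-kB subunit and feedback genes, which act downstream of ST2 and tumour necrosis factor receptors, were higher in the members for 11 of 14 against NK-gated cells (median log2 difference 1.57, and 1.89 within the limits) and for 8 of 14 against T-gated cells (median 1.20, and 1.46 within the limits), and lower for 0 in both. Nfkb1, a subunit gene, stood at 1092, 1152 and 1474 CPM in KO1, KO2 and KO3, against 1076 and 1406 CPM in WT1 and WT2 in the members. The log2 difference was 2.23 ± 0.21 (SE; edgeR adjusted p = 4.72e-06) from NK-gated and 1.92 ± 0.24 (SE; edgeR adjusted p = 4.58e-05) from T-gated cells. Nfkbiz, which encodes an inhibitor-family protein of the nucleus, was 2.38 ± 0.23 (SE; edgeR adjusted p = 4.35e-06) from NK-gated and 2.13 ± 0.30 (SE; edgeR adjusted p = 0.000166) from T-gated cells. Traf1, an adaptor gene of tumour necrosis factor receptors, was 2.40 ± 0.27 (SE; edgeR adjusted p = 1.89e-05) from NK-gated and 1.56 ± 0.30 (SE; edgeR adjusted p = 0.00193) from T-gated cells. Rel, another subunit gene, lay at 321 to 978 CPM in the members, against 83.8 to 252 CPM in NK-gated and 86.1 to 297 CPM in T-gated cells. Of 18 immediate-early genes, which tissue dissociation can also raise, 7 were higher and 2 lower against NK-gated cells, and 6 were higher and 1 lower against T-gated cells. For both lists, the shares over all genes were 12.8% higher and 9.67% lower against NK-gated cells, and 10.7% and 6.32% against T-gated cells. Dusp2 was lower in both, and Fosb and Klf4 were higher in both. The part of dissociation in these differences was not tested.

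Genes of antigen presentation differed between all members and those within the limits. All 6 MHC class II genes tested were higher in the members than in NK-gated cells and than in T-gated cells, at median log2 differences of 4.74 and 5.06. Within the limits 3 of 4 tested were higher in both, at medians of 1.79 and 1.57. Over all genes 12.8% and 10.7% were higher against NK-gated and T-gated cells, and 14.9% and 10.6% within the limits. H2-Aa was 5.10 ± 0.70 (SE; edgeR adjusted p = 0.00622), and 1.82 (adjusted p = 0.00149) within the limits, against NK-gated cells. It did not pass with doublet calls removed, at 5.41 (adjusted p = 0.0992), or with at least 4 gate genes, at 1.23 (adjusted p = 0.622). Cd74 against T-gated cells did not pass in these settings either, at 5.51 (adjusted p = 0.104) and 0.73 (adjusted p = 0.837), nor did H2-Ab1, at 5.49 (adjusted p = 0.118) and 1.02 (adjusted p = 0.808). H2-Aa and Cd74 are 2 of the 3 genes that set the myeloid limit. Beside this, the macrophage and dendritic cell list was higher for 8 of 12 against NK-gated cells over all members, and for 4 of 6 within the limits. The macrophage genes Lyz2, Plbd1, Mpeg1, Ccl6 and Alox5ap were among the 12 genes with the largest rise against T-gated cells, of those outside the gate that reached 100 CPM and rose in every library. Within the limits Lyz2 differed by 1.03 (adjusted p = 0.246) and the other 4 were not tested.

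Of 14 NK and ILC1 markers outside the gate, 13 were lower than in NK-gated cells, and of 14 T cell markers outside the gate, 13 were lower than in T-gated cells. Both directions follow from how the gates were chosen and are a description. Klra4 and Klra8, NK receptor genes of a family of close paralogs, had 0 UMIs in the members, at least 87.9-fold and 77.2-fold lower than in NK-gated cells against a floor of 3 counts over all members. Prf1, which encodes perforin, had 3 UMIs, and the NK-gated level was 235 (95% counting interval 80.5 to 1142) times as high. The T cell gene Cd8b1 had 1 UMI, and the T-gated level was 113 (95% counting interval 20.3 to 4476) times as high. Lef1, a factor of naive T cells, lay at 0 to 7.4 CPM in ILC2-like cells, against 78.3 to 539 CPM in T-gated cells. Ctla4, an inhibitory receptor of regulatory and activated T cells, lay at 0 to 32 CPM in ILC2-like cells, against 100.2 to 246 CPM in T-gated cells.

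Outside the lists, the genes with large rises in every library included Ccdc184, a gene of a coiled-coil domain protein, Hlf, which encodes a PAR bZIP transcription factor, Tnip3, an NF-kB feedback gene, and Csf2rb, the gene of the receptor chain shared by IL-3, IL-5 and GM-CSF. Ccdc184 lay at 82 to 242 CPM in ILC2-like cells, against 0 to 7.99 CPM in NK-gated cells, and at 0 to 4.74 CPM in T-gated cells. The log2 difference was 6.68 ± 0.69 (SE; edgeR adjusted p = 0.000165) from NK-gated and 5.89 ± 0.44 (SE; edgeR adjusted p = 9.45e-07) from T-gated cells. Hlf lay at 45.6 to 304 CPM in ILC2-like cells, against 0 to 7.36 CPM in NK-gated cells, with a difference of 5.63 ± 0.57 (SE; edgeR adjusted p = 2.94e-05). Tnip3 differed by 5.59 ± 0.63 (SE; edgeR adjusted p = 0.000261) from NK-gated cells and Csf2rb by 5.37 ± 0.43 (SE; edgeR adjusted p = 2.1e-06) from T-gated cells. Neither of these comparisons was tested within the limits, so the part of members over a limit in them is not known. The remaining genes named by the rule as lower than in NK-gated cells were Cd7, Klra3, Klra7, Klra9, Klrc1, Gzma and Car2, and those lower than in T-gated cells were Ly6c2, Nkg7, Gramd3, Ms4a4b, Plcxd2, Ccl5, Lck, Ctsw and Myb. Within the limits 766 of the 1069 NK calls and 597 of the 999 T calls passed with the same sign, while 141 of the NK calls and 203 of the T calls were not tested there.

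**Figure D3:**
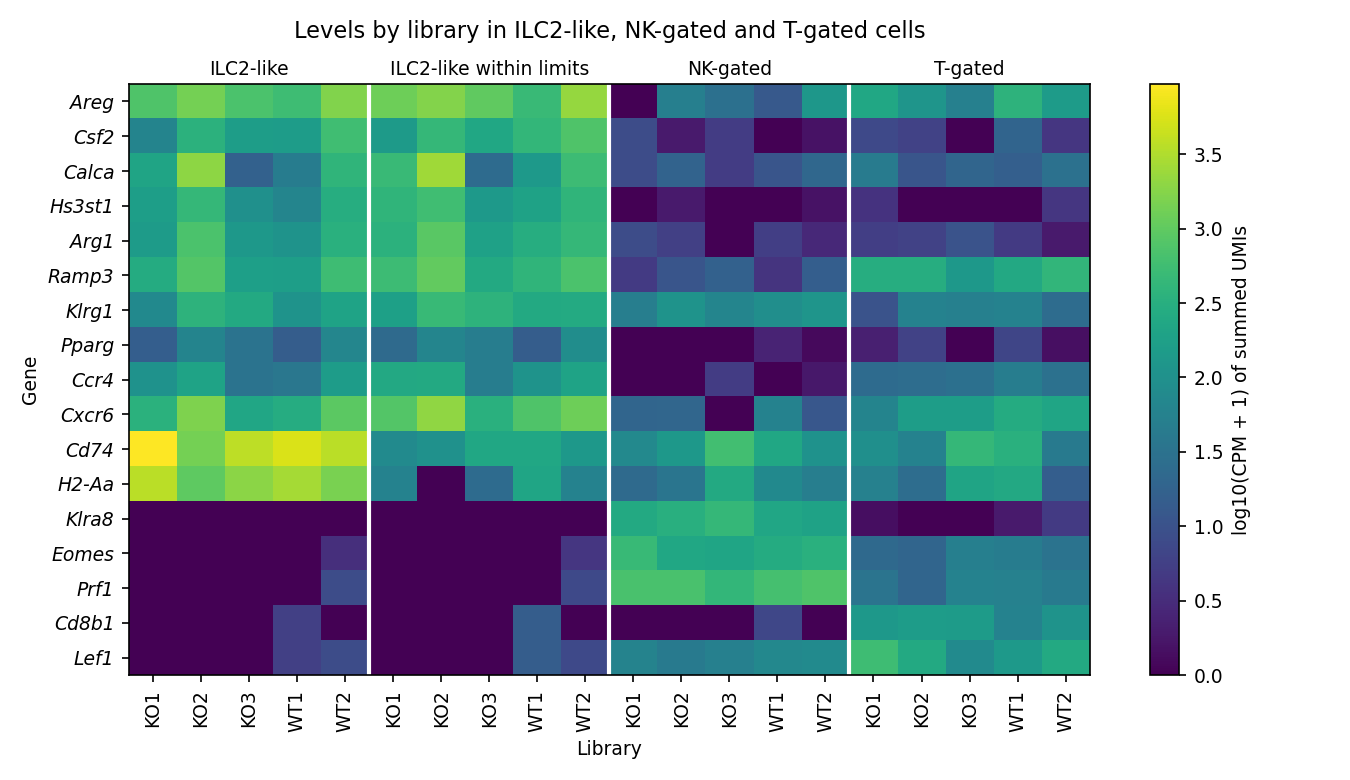
Log10 of CPM plus 1 of the summed UMIs of each library (columns, KO libraries left of WT libraries) for 17 genes in ILC2-like cells, ILC2-like cells within the limits, NK-gated cells and T-gated cells. Areg, Hs3st1, Arg1 and Pparg are bright in both ILC2-like blocks, Cd74 and H2-Aa are dimmer within the limits, and Klra8, Eomes and Prf1 are bright in NK-gated cells.

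The shares of ILC2-like cells overlapped between KO and WT libraries. Their share of all kept cells was 0.222%, 0.237% and 0.614% in KO1, KO2 and KO3, against 0.435% and 0.866% in WT1 and WT2. KO1 and KO2 were lowest, and KO3 lay between WT1 and WT2. Counting only members within the limits, it was 0.145%, 0.215% and 0.570% in KO1, KO2 and KO3. It was then 0.277% and 0.786% in WT1 and WT2, with KO3 again between them. The exact binomial 95% intervals ran over 0.141% to 0.333% in KO1, 0.336% to 1.03% in KO3 and 0.651% to 1.13% in WT2, and cover counting error only. The shares averaged 0.358% ± 0.222 in KO (SD, n = 3) and 0.651% ± 0.305 in WT (SD, n = 2; two-sided exact permutation p = 0.4). With 3 against 2 libraries the smallest p that this test can give is 0.1.

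Among Ptprc-positive cells the share was 0.765%, 1.57% and 2.51% in KO1, KO2 and KO3, against 1.54% and 2.41% in WT1 and WT2. It averaged 1.62% ± 0.875 in KO (SD, n = 3) and 1.97% ± 0.611 in WT (SD, n = 2; two-sided exact permutation p = 1). Among gated lymphoid cells, that is ILC2-like, NK-gated and T-gated cells together, it was 5.39%, 4.37% and 12% in KO1, KO2 and KO3, against 6.83% and 6.18% in WT1 and WT2, with KO3 above all other libraries. It averaged 7.24% ± 4.13 in KO (SD, n = 3) and 6.51% ± 0.462 in WT (SD, n = 2; two-sided exact permutation p = 1). With the limits applied, the Ptprc-based share was 0.499%, 1.43% and 2.33% in KO1, KO2 and KO3, against 0.98% and 2.18% in WT1 and WT2. The lymphoid share was then 3.67%, 4.12% and 11.4% in KO1, KO2 and KO3, against 4.71% and 5.76% in WT1 and WT2. Detection of gate genes depends on depth, so all cells were also thinned to 3000 UMIs, leaving out 3016, 563 and 473 shallower cells in KO1, KO2 and KO3, against 709 and 461 in WT1 and WT2. The share was then 0.245%, 0.22% and 0.498% in KO1, KO2 and KO3, against 0.299% and 0.693% in WT1 and WT2. In the same cells without thinning it was 0.286%, 0.269% and 0.609% in KO1, KO2 and KO3, against 0.46% and 0.884% in WT1 and WT2. At 2000 UMIs the thinned share was 0.201%, 0.162% and 0.691% in KO1, KO2 and KO3, against 0.432% and 0.616% in WT1 and WT2, and at 5000 UMIs 0.257%, 0.3% and 0.0705% in KO1, KO2 and KO3, against 0.244% and 0.641% in WT1 and WT2. KO3 was thus highest at 2000 UMIs and lowest at 5000 UMIs, where 1 of its members was deep enough. That member was over the myeloid limit, whereas the 1 KO3 cell gated after thinning was within the limits. Thinning thus also changed which cells passed the gate. At 3000 UMIs the shares averaged 0.321% ± 0.154 in KO (SD, n = 3) and 0.496% ± 0.279 in WT (SD, n = 2; two-sided exact permutation p = 0.4). The difference among all kept cells (KO minus WT) was -0.293 percentage points, and it was -0.0771 without WT2, -0.225 without KO1 and -0.509 without WT1. Without KO1 or without WT2 the Ptprc-based difference changed sign, and without KO3 the lymphoid one did.

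**Figure D4:**
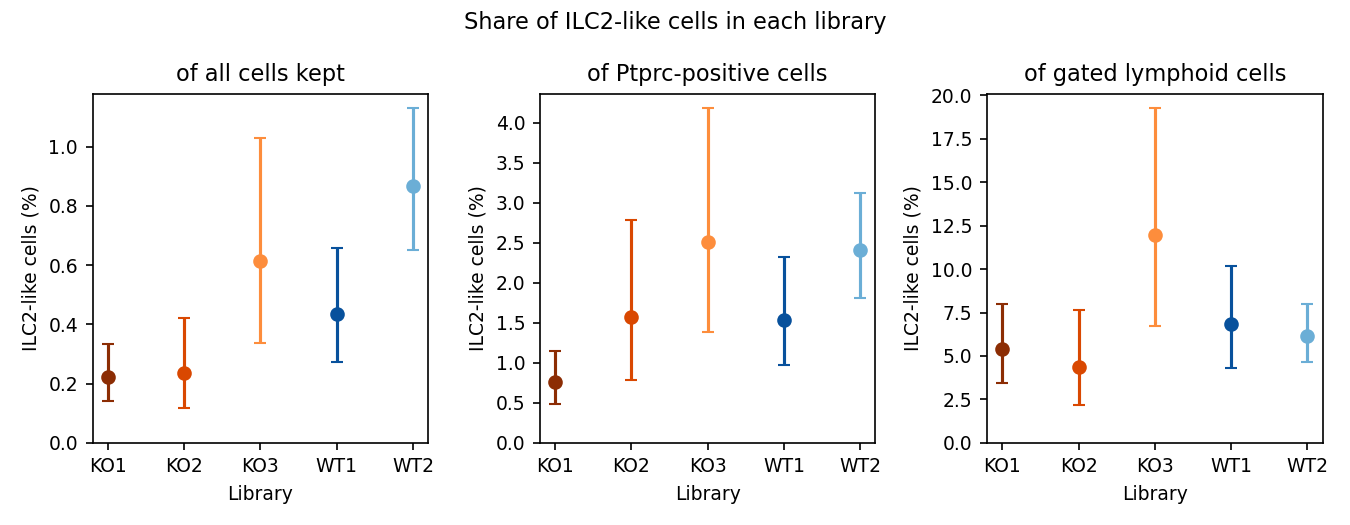
Share of ILC2-like cells in each library (percent) among all kept cells, among Ptprc-positive cells and among gated lymphoid cells, KO libraries left of WT libraries, with 95% exact binomial intervals. KO3, at 0.614% of kept cells, lies between WT1 at 0.435% and WT2 at 0.866%.

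With genotype as the only term of the fit, no ILC2 marker outside the gate passed between genotypes. Over all members, 13 of 3297 genes passed for KO against WT (0.394%), 1 higher (0.0303%) and 12 lower (0.364%), and 99 reached an unadjusted p under 0.05. DESeq2 called 20 genes, all 13 among them. Of 16 ILC2 markers outside the gate 0 passed by edgeR or by DESeq2 over all members and 0 had an unadjusted p under 0.05, and their median log2 difference was 0.38 against 0.038 for all genes. Within the limits, 0 of 1110 genes passed (0%) by edgeR or by DESeq2, with 32 and 20 at an unadjusted p under 0.05. Of the 16 ILC2 markers outside the gate tested there, 1 (Csf2) had an unadjusted edgeR p under 0.05. Of the 3297 genes, 499 (15.1%) had library ranges that did not overlap between genotypes.

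Among the secreted factors, Areg differed by -0.20 ± 0.54 between KO and WT members on the log2 scale, Csf2 by -0.92 ± 0.81 and Calca by 1.77 ± 1.82 (SE; edgeR adjusted p = 0.998 for each). Calca stood highest in KO2, and its difference was -0.82 without that library. Csf2 was 0.30 without WT2. The enzyme genes Arg1 and Hs3st1 differed by 0.60 ± 0.86 and 0.40 ± 0.81, and the receptor genes Klrg1, Ramp3 and Cxcr6 by 0.58 ± 0.66, 0.28 ± 0.76 and 0.28 ± 0.95, none of them past the threshold. Each of these 5 turned negative without KO2. Within the limits Areg was -0.014, Csf2 -1.10 ± 0.49 (SE), Arg1 0.38, Klrg1 0.36 and Calca 1.57, none of them past the threshold. In simulated sums of this size, 4-fold changes were recovered for 38.6% of genes and 2-fold changes for 4.49%, so over all members differences of these sizes were mostly not detectable. In simulated sums of the members within the limits the shares were 74.1% and 24.4%. Both simulations gave every gene the same spread between libraries and counted only genes abundant enough to be tested. The shares therefore do not hold for genes with a larger spread, such as Calca within the limits (SE 1.36).

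Of 9 cytokine genes, 10 cytokine receptor genes, 8 neuropeptide and lipid receptor genes, 18 transcription factor genes, 13 homing genes and 9 Notch pathway genes tested, 0 passed in each list by edgeR or by DESeq2, at median log2 differences of -0.64, 0.014, 0.16, -0.061, 0.068 and 0.21. Of 14 NF-kB genes 0 passed (median 0.052), and of 16 metabolism genes 0 (median 0.14). Of 14 MHC class I genes and 9 interferon response genes 0 passed, at medians of -0.28 and -0.27. At an unadjusted p under 0.05 these lists held 5 genes over all members, namely Il6, Itga4, Hes1, Hk2 and Slc2a1. They held Csf2, Ccl5, Il6, Il18rap and Tnfaip3 within the limits, where 0 genes passed. A p that misses the threshold does not show that KO and WT members were alike.

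The gene higher in KO members was Hspa1a, an inducible HSP70 chaperone gene. Its count was 168, 67 and 59 UMIs in KO1, KO2 and KO3, against 5 and 5 UMIs in WT1 and WT2, a log2 difference of 5.58 ± 0.57 (SE; edgeR adjusted p = 0.00412). In KO1, 167 of its 168 UMIs came from 1 member, which was over the myeloid limit, and in KO2 all 67 came from 1 of 11 members. Both of these members were doublet calls, and without the doublet calls Hspa1a was not tested. Without KO1 the difference was 5.62 (edgeR adjusted p = 0.051) and without KO2 5.66 (edgeR adjusted p = 0.0542), as large as over all libraries but not past the threshold. In KO3 it was read in 6 of 14 members, against 4 of 22 in WT1 and 3 of 54 in WT2. Within the limits the difference was 5.94 and did not pass (edgeR adjusted p = 1), and KO1 and WT1 held 0 UMIs there. In NK-gated cells Hspa1a stood at 77.9, 14 and 159.8 CPM in KO1, KO2 and KO3, against 29.4 and 28.3 CPM in WT1 and WT2, and in T-gated cells at 92.2, 27.1 and 351 CPM in KO1, KO2 and KO3, against 38.9 and 35.6 CPM in WT1 and WT2. KO3 was highest and KO2 lowest in both. Hspa1b, a near-identical paralog next to it whose reads cannot be fully told apart, was 4.30 ± 0.96 (SE; edgeR adjusted p = 0.323) and did not pass, though it passed with DESeq2 (adjusted p = 0.000411), with no filter on low counts (edgeR adjusted p = 5.34e-08) and without WT1 (edgeR adjusted p = 0.000146). The counts of both are therefore uncertain as single genes. Of 12 heat shock genes tested, 1 was higher, at a median of 0.77. The heat shock list summed to 8933, 7573 and 13170 CPM in KO1, KO2 and KO3, against 6604 and 7069.5 CPM in WT1 and WT2 in the members. Its sums within the limits were 5561, 8260 and 14270 CPM in KO1, KO2 and KO3, against 4863 and 6269 CPM in WT1 and WT2. There KO1 lay between WT1 and WT2, so the genotypes overlapped. In NK-gated cells the list summed to 7145, 7054 and 12274 CPM in KO1, KO2 and KO3, against 5905 and 5927 CPM in WT1 and WT2, and in T-gated cells to 6432, 8559 and 14432 CPM in KO1, KO2 and KO3, against 6854 and 6922 CPM in WT1 and WT2. KO3 was thus highest in each of these gates, and the part of the library in the Hspa1a difference was not tested.

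Among the genes lower in KO members, 3 of 8 epithelial markers tested passed (Wfdc18, Csn3 and Cldn4). The others named were Lcn2, Plet1, F3, Ltf, Ccn1, Tm4sf1, S100a16 and Ceacam1, of which Lcn2 and Ltf encode antimicrobial proteins of luminal epithelium and F3 encodes tissue factor. Plet1, a surface protein gene of epithelial progenitors, was read as 2, 2 and 0 UMIs in KO1, KO2 and KO3, against 209 and 444 UMIs in WT1 and WT2, a log2 difference of -6.45 ± 0.64 (SE; edgeR adjusted p = 0.00412). Of its 657 UMIs, 643 lay in the 4 members over the epithelial limit, 3 in WT1 and 1 in WT2. For the 10 genes named as lower by the rule, that is these without Csn3, those 4 members held 91.5% to 97.9% of the UMIs. No KO member was over that limit. Within the limits none of these 10 genes was abundant enough to be tested. Gpr137b, Tspyl1 and Ltb, the next genes with higher values in KO members, were 3.10, 1.94 and 1.85 and did not pass.

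**Figure D5:**
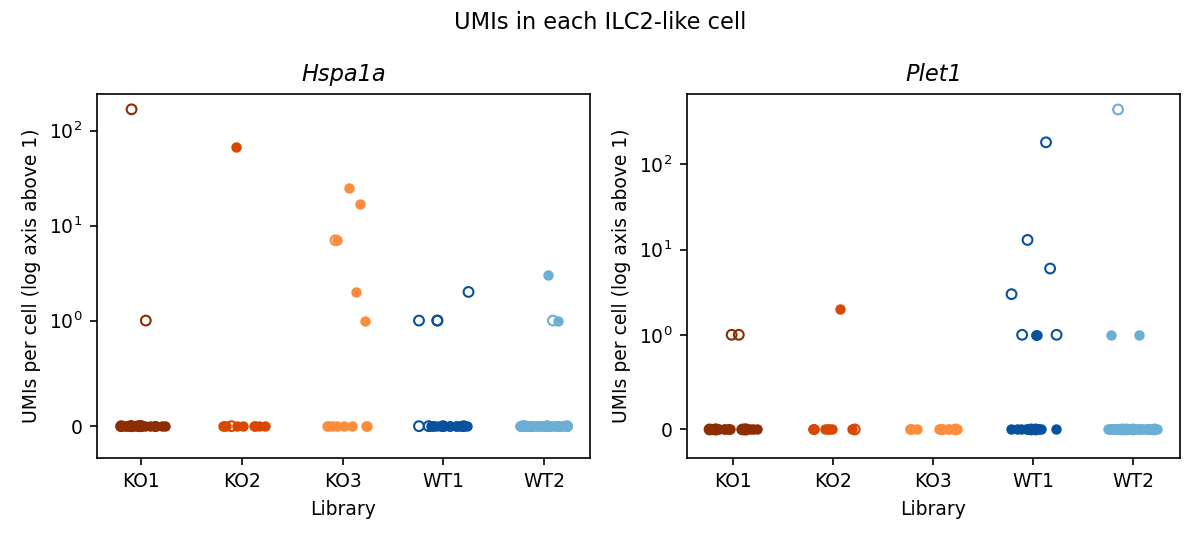
UMIs of Hspa1a and Plet1 in each ILC2-like cell, by library, KO libraries left of WT libraries, on an axis that is linear below 1 and logarithmic above; open circles are members over a myeloid or epithelial limit. For Hspa1a, 167 of 168 UMIs of KO1 lie in 1 cell and all 67 of KO2 in another, and for Plet1, 643 of 657 UMIs lie in 4 open circles of WT1 and WT2.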

How the data were processed

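Single-cell 3′ UMI counts of 5 mammary gland libraries were used, 3 labelled Frmd3 KO and 2 WT. The authors deposited raw UMI counts per gene and barcode (32285 genes) made with Cell Ranger, whose version was 6.1.2 for KO3 and 6.0.2 for the other libraries per the file headers, on mm10 per the submitters' processing notes. The annotation release is not given in the sources used here. All else was computed from these counts. Barcodes reaching 500 genes, with mitochondrial UMIs no higher than 15%, made up the kept cells (28588 of 32472), and the gates were applied to raw counts. NK-gated cells had at least 2 UMIs of Ncr1, Klrb1c and Klre1 and T-gated cells at least 2 of Cd3d, Cd3e and Trac, with the other groups under the same limits. Doublets were scored per library against simulated doublets, marking the top 0.8% per 1000 barcodes, and kept in the main results.

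UMIs were summed per library and gate over libraries with at least 10 cells. Sums were tested with edgeR 4.0.16 (R 4.3.3; quasi-likelihood test, robust, after filterByExpr and TMM), and p-values were adjusted by Benjamini-Hochberg over all genes tested, at a threshold of 0.05. Genotype alone was the design for KO against WT, and the library was a block for ILC2-like against NK-gated or T-gated cells. SE is the absolute log2 difference divided by the square root of the F statistic. Shares were compared over libraries with two-sided exact permutation tests, and thinning drew 3000 UMIs per cell. CPM divides by the summed UMIs of those cells. Intervals are 95% and, like floors of 3 counts, cover counting error only. Nothing in the labels says how the 5 samples were kept or handled, so p-values measure the spread between these libraries.

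Alternatives were DESeq2 1.42.0, DESeq2 size factors, no filter on low counts, other cell filters, other gate stringencies, doublet calls removed, libraries with at least 20 members, each library left out, no library block, and a replicate block. The replicate block for KO against WT leaves out KO3. Limits on myeloid and epithelial genes, and at least 4 gate genes in the gene tests, were added after the data had been seen. The scripts were tested on simulated sums. The members and gene lists were chosen with earlier results of these data known. For KO against WT the text names up to 10 genes per direction with the largest change past the threshold, with library ranges apart and at least 20 CPM, filled to 5 by the smallest p, and list members. Against the other gates it names up to 12 per direction, changed the same way in every library, at least 100 CPM, and list members. Gene models without a name were counted only. A few genes of the lists enter the counts but are not reported here by name.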

Additional observations from a re-analysis of the deposited data

How the results depend on the processing

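The share of ILC2-like cells among kept cells kept its negative sign (KO minus WT) under every alternative run, at -0.509 to -0.0771 percentage points with a library left out, against -0.293 with all 5. Leaving out 1 library moved the difference to -0.806 to 0.0754 percentage points among Ptprc-positive cells, -0.372 to 0.0225 for thinned cells and -1.63 to 2.17 among gated lymphoid cells. It turned positive for Ptprc-positive cells without KO1 (0.0683) or WT2 (0.0754) and for thinned cells without WT2. Among lymphoid cells it turned negative without KO3 and at 1000 genes and 10% mitochondrial UMIs (-0.134). The replicate block gave the same value as leaving out KO3 (-1.63), because it also leaves out that library. The count of 13 genes for KO against WT became 20 with DESeq2, 52 with no filter on low counts, 20 with the replicate block, and 0 with 0 UMIs of each excluded group (4 libraries left, 101 at an unadjusted p under 0.05), with the myeloid and epithelial limits, with at least 4 gate genes (34 unadjusted) and with DESeq2 within the limits. Leaving out a library gave 0 to 32 calls, 0 without KO1 (128 unadjusted) or KO2 (106 unadjusted), 3 without KO3, 32 without WT1 and 31 without WT2, where the lone WT library is assumed to vary like the others. The counts against NK-gated cells stayed within 1.5 times of 1069 (731 to 1033 with a library left out). Those against T-gated cells fell to 662 without KO1 and 576 without WT2 (576 to 935). The effect of genotype on list members changed sign in these settings, with none of the reversed values past the threshold. Calca passed with the replicate block alone, at 2.28 (adjusted p = 0.0427), and Hspa1b passed with it at 3.13 (adjusted p = 0.0271), both without KO3. Areg was 0.18 without doublet calls and 0.093 with the replicate block, and -0.86 to 0.83 with a library left out. That range was -0.66 to 1.61 for Arg1, -0.052 to 1.09 for Klrg1, -0.82 to 4.05 for Calca, -1.85 to 0.30 for Csf2, -0.43 to 1.91 for Hs3st1, -0.66 to 1.37 for Ramp3 and -1.09 to 1.39 for Cxcr6. Leaving out KO2 gave the negative values of all but Areg and Csf2, and WT2 the positive ends. Without WT1, Arg1 was -0.041, Hs3st1 -0.35, Ramp3 -0.40 and Cxcr6 -0.41. With 0 UMIs of each excluded group, KO2 fell under 10 members and left the fit, so this setting also lacks KO2. There Arg1 was -0.71, Klrg1 -0.058, Calca -0.89, Hs3st1 -0.66, Ramp3 -0.51 and Cxcr6 -1.11. Of the named genes, 326 gene and setting pairs kept their call against NK-gated cells and 4 lost it, and 312 and 10 did so against T-gated cells. For KO against WT, 202 pairs kept their call or lack of one. There 51 lost a call, 5 gained one and 20 changed sign, including fits with 1 WT library. Pairs in which the gene was not tested are left out of these counts. With no filter the median of all genes moved to -0.20, -0.26 and -0.41 (log2) for KO against WT, NK-gated and T-gated cells. Equal replicate numbers were treated as a label here. Deviations correlated at 0.225 for KO1 with WT1 and 0.136 for KO2 with WT2 over 3310 genes. They correlated at -0.225 for KO1 with WT2 and -0.136 for KO2 with WT1. With 2 WT libraries these values mirror each other by construction, so they cannot show whether the replicate numbers pair the samples. Requiring 20 members left 1 KO library, so KO against WT was not run there. The depth of 11 to 54 members per library limits every genotype comparison.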
